A study of Mus musculus with 12 samples.

Results

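Transcripts of the ubiquitin-activating (E1) and ubiquitin-conjugating (E2) enzymes were measured in whole blood of mice kept at low oxygen, after recovery, and at normal oxygen. The set holds 36 listed genes. Of these, 33 had at least 1 probe set, a group of short oligonucleotides on the array, that the platform annotation assigns to that gene alone, and these 33 genes had 90 probe sets among 45101 on the array. Uba2 and Ube2m had no probe set named for them in the annotation used, and Ube2l3 was covered only by probe sets that name several genes, so none of these 3 was counted. Elsewhere on the array, 18194 genes in all had a probe set naming 1 gene.

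The mice were C57Bl/10 wild type animals, 3 months old. CH mice spent 2 weeks in chronic hypoxia, during which oxygen was lowered to 8%. REC mice went through the same 2 weeks and then 2 weeks at 21% oxygen, and NX mice stayed at 21% oxygen. Blood was drawn from the inferior vena cava, and each of the 12 arrays (4 per group) holds the RNA of 1 mouse. Whole blood RNA comes from red cell precursors, white cells and platelets together, so fewer cells of a type and less RNA per cell cannot be told apart in any value below.

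Ubiquitin is a small protein that is attached to other proteins, most often to send them to the proteasome. An E1 enzyme activates ubiquitin with ATP, passes it to an E2 enzyme, and the E2 works with a ligase, an E3, that picks the substrate. The E2 largely decides whether a single ubiquitin or a chain is built and through which lysine of ubiquitin the chain grows. Related modifiers, SUMO, NEDD8 and ISG15, have E1 and E2 enzymes of their own. Maturing red cells remodel their contents in part through ubiquitin, and reticulocytes, the youngest circulating red cells, have long been a source of these enzymes.

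The signals are linear array intensities that all share a trimmed mean of 150.0, and were compared as log2(signal + 16) with limma, a linear model fitted to all probe sets at once. A gene was called higher or lower when its adjusted p was under 0.05 and its change at least 2-fold, through its brightest single-gene probe set. The median signal of an array was 32.9 to 59.9, and 19.6% to 33.4% of its probe sets were below a signal of 16, where the added 16 holds fold changes down. The bacterial transcripts added to every sample as hybridization controls (18 probe sets) had a mean log2 signal of 14.3 in CH, 11.9 in REC and 12.7 in NX. The difference was 1.61 for CH against NX, -0.81 for REC against NX and 2.42 for CH against REC (exact two-sided permutation p = 0.0286 for all 3, the lowest value possible with 4 arrays a side). For actin, the signal at the 3′ end over that at the 5′ end, which rises as RNA breaks down, was 2.00 ± 0.0941 in CH, 1.61 ± 0.0923 in REC and 1.71 ± 0.104 in NX (SD, n = 4).

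Erythroid marker genes moved strongly with the groups. All 10 measured of 12 fixed erythroid markers were higher in CH than in NX, and 7 of 10 were lower in REC than in NX. With the arrays scaled on the hybridization controls, the change of these 10 in CH against NX was 0.13 to 2.76. Their summed signal was 111853 to 179514 in CH, 5430 to 16115 in REC and 22222 to 33661 in NX. Of 11 measured proliferation markers, 7 were higher in CH and 3 lower in REC, with sums of 18052 to 34809 in CH, 509 to 1136 in REC and 2503 to 3523 in NX. On the hybridization control scale the proliferation markers changed by -0.97 to 2.01 in CH against NX, and 4 of the 11 changed sign. In CH, 6 of 7 B cell markers and 7 of 7 T cell markers were lower than in NX. Of 7 measured NK cell markers, 4 were higher in REC than in NX, among them Nkg7 (1.81) and Klre1 (1.60), with a median change of 1.38, while in CH against NX 4 were lower and 1 higher. The NK sums were 1368 to 2729 in CH, 8703 to 13839 in REC and 3091 to 5272 in NX. No marker was at 0, and the lowest marker signals were 2.59 for Pax5 of the B cell list and 3.34 for Sptb of the erythroid list. The part of these shifts in the enzyme results was not tested.

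In hypoxic blood the enzymes split by gene. In CH against NX, 11 of 33 were called higher and 9 of 33 lower, where 9.08% of all 18194 genes were called higher and 19.5% lower. The median log2 change of the 33 was 0.27, against 0.05 over all genes, and the changes reached from -2.34 for Sae1 to 3.43 for Ube2c. The 11 that were higher in CH were Ube2c, Ube2f, Ube2e3, Ube2o, Ube2b, Ube2h, Ube2r2, Ube2l6, Ube2d3, Ube2s and Cdc34, all of them E2 enzymes. The 9 that were lower in CH were the E1 subunits Sae1 and Uba3 and the E2s Ube2e1, Ube2g1, Ube2q2, Ube2d2a, Ube2g2, Ube2w and Ube2z. Scaling the arrays on their hybridization controls in place of the trimmed mean shifted the median over all probe sets to -0.71 (log2, against 0.11 as deposited) and left 5 of the 33 higher (Ube2c, Ube2f, Ube2e3, Ube2o and Ube2b) and 19 lower. With quantile normalization 6 were higher and 6 lower. The shares of all genes called under these other scalings were not counted, so these counts have no background to be read against.

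In REC against NX, 2 of 33 were called higher and 7 of 33 lower, where 2.5% of all genes were called higher and 1.79% lower. In CH against REC, 10 of 33 were higher and 11 of 33 lower, against 12.3% and 23.3% of all genes. The median log2 change of the 33 was 0.30 in REC against NX, with -0.02 over all genes, and -0.20 in CH against REC, with 0.07 over all genes. CH against NX and REC against NX share the 4 NX arrays, so the values of both are given side by side for each gene and were not set against each other by a test.

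**Figure D1:**
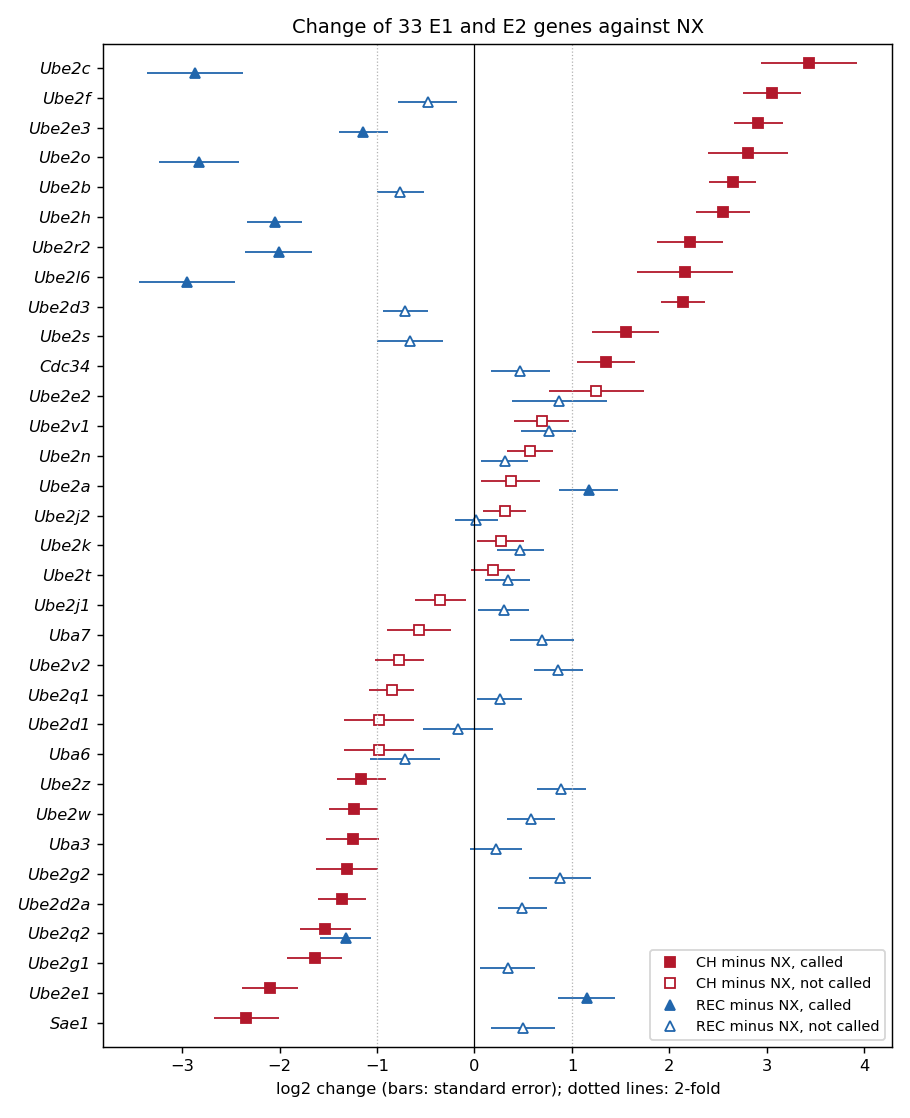
Log2 change with its standard error for the 33 measured genes, ordered by the change in CH against NX, with CH minus NX as squares, REC minus NX as triangles, and filled symbols for calls. The upper 11 genes are higher in CH, from 3.43 for Ube2c to 1.35 for Cdc34; under the hybridization control scaling Cdc34 and Ube2s turn to -0.20 and -0.03.

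Combined over both comparisons with NX, 6 of the 33 genes were higher in CH and lower in REC (Ube2c, Ube2o, Ube2l6, Ube2h, Ube2r2 and Ube2e3), a pattern held by 1.14% of all genes. A further 4 (Ube2f, Ube2b, Ube2d3 and Ube2s) were higher in CH than in both NX and REC and not called in REC against NX, as were 6.07% of all genes, although for Ube2b the other 3 probe sets were called lower in REC. The mirror pattern, lower in CH than in both and not called in REC against NX, held for 7 (Sae1, Uba3, Ube2d2a, Ube2g1, Ube2g2, Ube2w and Ube2z), with 15.5% of all genes. Ube2e1, Ube2q2, Ube2a and Cdc34 each had a pattern of calls of their own. Uba7, Ube2v2 and Ube2q1 were called only in CH against REC, where they were lower. The remaining 9 genes (Uba6, Ube2d1, Ube2e2, Ube2t, Ube2n, Ube2v1, Ube2j1, Ube2j2 and Ube2k) were called in no comparison.

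The cell cycle and cullin E2s were the group in which every measured member was higher in CH. The groups were formed with earlier results of these data known. Ube2c and Ube2s work with the anaphase-promoting complex, the ligase that drives exit from mitosis, where Ube2c places the initial ubiquitins and Ube2s extends chains through lysine 11. Cdc34 and Ube2r2 build lysine 48 chains with cullin ligases of the SCF type. All 4 were higher in CH than in NX, and 2 of 4 were lower in REC, but on the hybridization control scaling Cdc34 and Ube2s had changes of -0.20 and -0.03 in CH against NX.

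Ube2c (probe set 1452954_at) had signals of 14772, 22332, 16001 and 23326 in CH, 618, 89.0, 142 and 284 in REC, and 868, 3051, 1955 and 1684 in NX. The 3 groups did not overlap, with CH highest and REC lowest, and REC 1 was the highest of the REC arrays. In log2 terms the change was 3.43 ± 0.49 in CH against NX (SE, n = 4 mice each, adjusted p = 0.00016) and -2.87 ± 0.49 in REC against NX (adjusted p = 0.00441). Between CH and REC it was 6.30 ± 0.49, a 79.1-fold difference in the level of the same probe set (adjusted p = 3.05e-07). Among the members, this was the largest change in CH against NX and in CH against REC.

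The promoter of Ube2c is shown because CCAAT boxes followed by a CHR element (TTTGAA) near the start site are the textbook layout of mitotic promoters. The window, from RefSeq on GRCm38.p6, is chr2:164769679-164769978 on the + strand, 250 bases before to 50 after the start, with matches to CCAAT and TTTGAA on either strand in capitals.
Ube2c promoter: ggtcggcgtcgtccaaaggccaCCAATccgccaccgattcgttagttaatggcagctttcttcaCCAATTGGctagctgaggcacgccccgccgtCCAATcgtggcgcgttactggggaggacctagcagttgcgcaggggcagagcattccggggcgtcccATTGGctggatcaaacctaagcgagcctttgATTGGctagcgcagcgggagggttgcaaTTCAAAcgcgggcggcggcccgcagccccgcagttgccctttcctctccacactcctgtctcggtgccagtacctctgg
It holds 6 matches to CCAAT, at 228, 186, 183, 155, 88 and 57 bases before the start, those at 186 and 183 overlapping on opposite strands, and 1 match to TTTGAA at 29 bases before it. Over all 32851 promoter windows of this length, 37.4% hold CCAAT and 17.9% hold TTTGAA.

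Ube2r2 (1415768_a_at) had signals of 18664, 27819, 24491 and 36210 in CH, 2426, 870, 1020 and 1691 in REC, and 4071, 6087, 5284 and 7503 in NX. Again every CH array lay above and every REC array below the NX arrays. The log2 change was 2.21 ± 0.34 in CH against NX (adjusted p = 0.000264) and -2.01 ± 0.34 in REC against NX (adjusted p = 0.00408). Its other probe set was also called in both, at 2.09 and -1.93. The higher call in CH was lost with quantile normalization (0.46) and when arrays were scaled on the hybridization controls (0.60).

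Ube2s was higher in CH than in NX by 1.55 ± 0.34 (adjusted p = 0.0034) and than in REC by 2.21 ± 0.34 (adjusted p = 0.000169), with a mean signal of 1230 ± 456 in CH, 249 ± 71.9 in REC and 415 ± 145 in NX (SD, n = 4). Cdc34 was higher in CH than in NX by 1.35 ± 0.30 (adjusted p = 0.00347), with 590 ± 148 in CH, 311 ± 67.0 in REC and 226 ± 72.1 in NX. For both genes NX 1 was far below the other NX arrays, at 205 for Ube2s and 119 for Cdc34. Without NX 1 both were still called higher in CH.

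Ube2h, the E2 that serves the CTLH ligase complex, and Ube2o, a large E2 with ligase activity of its own, were among the 6 genes higher in CH and lower in REC. In mice, Ube2o is known for removing ribosomes and unpaired globin from reticulocytes. Ube2o (1433765_at) had signals of 28853, 37590, 35892 and 54773 in CH, 1645, 423, 414 and 1103 in REC, and 3615, 6648, 5303 and 6901 in NX. The groups did not overlap, and REC 1 and REC 4 were the higher of the REC arrays. In log2 terms the change was 2.81 ± 0.41 in CH against NX (adjusted p = 0.000202) and -2.83 ± 0.41 in REC against NX (adjusted p = 0.00204), and the CH call was lost with quantile normalization (0.99, adjusted p = 0.0975).

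Ube2h (1418631_at) had signals of 25798, 33311, 27438 and 38753 in CH, 2011, 841, 1021 and 1458 in REC, and 4293, 5871, 4990 and 6081 in NX. CH was again highest and REC lowest with no overlap. The log2 change was 2.55 ± 0.28 in CH against NX (adjusted p = 2.18e-05) and -2.05 ± 0.28 in REC against NX (adjusted p = 0.00152). All 4 of its probe sets were called higher in CH, by 1.45 to 2.55, while only the brightest was called lower in REC, with -0.47 to -0.26 for the other 3. Quantile normalization (0.78) and the hybridization control scaling (0.94) each took away the CH call.

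RefSeq lists 2 start sites for Ube2h, and both windows are shown because the probe sets of the gene differed in REC. A further reason was GATA1, the main erythroid transcription factor, whose sites can hold AGATAA, the only form searched for. Matches to AGATAA on either strand are in capitals.
Ube2h promoter, chr6:30304490-30304789, - strand, GRCm38.p6: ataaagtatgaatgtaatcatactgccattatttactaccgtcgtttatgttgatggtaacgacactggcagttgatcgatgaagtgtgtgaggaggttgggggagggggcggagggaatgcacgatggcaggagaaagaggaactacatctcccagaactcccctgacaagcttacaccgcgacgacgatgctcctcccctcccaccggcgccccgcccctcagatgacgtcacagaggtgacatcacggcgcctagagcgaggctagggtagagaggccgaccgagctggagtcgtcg
Ube2h promoter, chr6:30243754-30244053, - strand, GRCm38.p6: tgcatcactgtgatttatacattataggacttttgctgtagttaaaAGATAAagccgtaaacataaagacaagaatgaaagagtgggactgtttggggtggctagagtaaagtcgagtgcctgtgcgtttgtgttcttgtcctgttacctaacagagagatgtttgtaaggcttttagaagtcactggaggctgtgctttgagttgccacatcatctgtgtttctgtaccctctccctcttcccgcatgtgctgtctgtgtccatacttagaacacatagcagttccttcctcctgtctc
The downstream window holds 1 match to AGATAA, at 204 bases before its start, and the upstream window none. Over all promoter windows, 11.2% hold AGATAA. Which start site a probe set reads was not tested.

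The ISG15 enzymes moved apart in CH against REC, while against NX only the E2 was called. ISG15 is a ubiquitin-like modifier induced by interferon, Uba7 is its E1 and Ube2l6 its E2. Ube2l6 (1417172_at) had signals of 24786, 28199, 23612 and 33923 in CH, 2639, 325, 438 and 942 in REC, and 6659, 4519, 5169 and 8922 in NX. CH lay above and REC below NX on every array, with REC 1 well above the other REC arrays. In log2 terms the change was 2.16 ± 0.49 in CH against NX (adjusted p = 0.00427) and -2.95 ± 0.49 in REC against NX (adjusted p = 0.00398), the largest decrease of a member in REC. In CH the call was lost with quantile normalization (0.41) as well as on the hybridization control scale (0.55).

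Uba7 had a mean signal of 695 ± 285 in CH, 1610 ± 326 in REC and 1030 ± 335 in NX (SD, n = 4), and its log2 change against NX was -0.57 in CH and 0.69 in REC, neither called. It was lower in CH than in REC by -1.26 ± 0.33 (adjusted p = 0.00775). Only 1 of its 3 probe sets was called there, with changes from -1.26 to -0.12. Of 8 measured genes of the interferon response, 1 was higher in CH (Rsad2, 2.02), 2 were lower (Ifit2, -1.87, and Ifit3, -1.37) and 1 was lower in REC (Rsad2, -2.60). Rsad2 alone had a signal of 34206 to 58415 in CH, 847 to 4119 in REC and 9605 to 12898 in NX. The other 7 genes summed to 1420 to 3649 in CH, 1506 to 1699 in REC and 1632 to 3456 in NX, so that the groups overlapped without Rsad2. In CH against REC, 4 of the 8 were called higher, Rsad2 (4.62), Irf7 (1.97), Ifit1 (1.56) and Oasl2 (1.23). The 2 called lower there were Ifit2 (-1.31) and Ifit3 (-1.37).

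**Figure D2:**
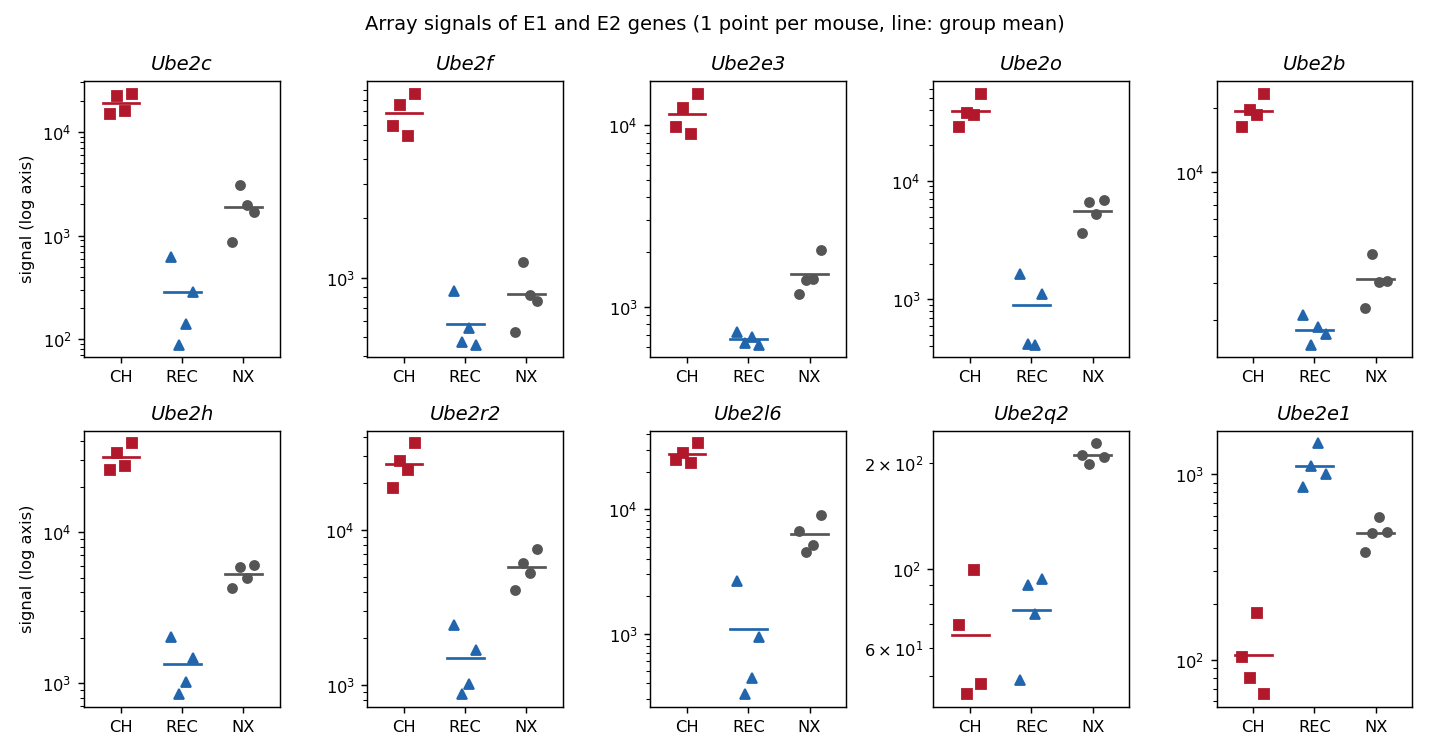
Signal on a log axis in each mouse, in arbitrary array units, for the 10 genes with the largest changes or with calls in both CH and REC against NX, with CH, REC and NX from left to right and a line at each group mean. In 6 genes, Ube2c, Ube2o, Ube2l6, Ube2h, Ube2r2 and Ube2e3, every CH point is above and every REC point below the NX points. They are the genes called higher in CH and lower in REC, a pattern of calls held by 1.14% of all genes. How often all genes separate in this way was not counted.

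The UBE2D and UBE2E families held members that moved in opposite directions. UBE2D enzymes serve many ligases and start chains, and UBE2E enzymes are close relatives with a longer front part that mostly attach single ubiquitins. Of 6 measured, 2 were higher in CH than in NX (Ube2d3 and Ube2e3), 2 were lower (Ube2d2a and Ube2e1) and 2 were not called (Ube2d1 and Ube2e2). These 4 directions held under every scaling tried, although Ube2d3 was then no longer called with quantile normalization (0.68) or the hybridization control scaling (0.53).

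Ube2e3 (1448670_at) had signals of 9743, 12375, 8917 and 14874 in CH, 722, 635, 685 and 618 in REC, and 1181, 1398, 1419 and 2055 in NX. The groups did not overlap, and the REC arrays were close together. The log2 change was 2.91 ± 0.25 in CH against NX (adjusted p = 3.18e-06) and -1.14 ± 0.25 in REC against NX (adjusted p = 0.0163). The REC call was lost without NX 4 (-0.98, adjusted p = 0.0591), without REC 2 (-1.12, adjusted p = 0.0581) and without REC 3 (-1.15, adjusted p = 0.0517), and under the median and hybridization control scalings (-0.93 and -0.34).

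Ube2e1 (1416943_at) had signals of 104, 79.6, 178 and 65.2 in CH, 852, 1116, 1471 and 1001 in REC, and 382, 481, 590 and 489 in NX. Here CH was lowest and REC highest on every array, the reverse of Ube2e3. In log2 terms the change was -2.10 ± 0.29 in CH against NX (adjusted p = 0.000133), 1.15 ± 0.29 in REC against NX (adjusted p = 0.0345) and -3.25 ± 0.29 in CH against REC (adjusted p = 1.25e-06). The higher call in REC did not hold when any NX or REC array was left out, with adjusted p of 0.0508 to 0.124, and its other probe set was called in neither comparison with NX.

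Ube2d3 had a mean signal of 15400 ± 3940 in CH, 2070 ± 111 in REC and 3410 ± 441 in NX, a log2 change of 2.14 ± 0.23 in CH against NX (adjusted p = 1.78e-05) and -0.71 ± 0.23 in REC (not called). Ube2d2a had 397 ± 124 in CH, 1430 ± 121 in REC and 1020 ± 153 in NX, with -1.36 ± 0.25 in CH against NX (adjusted p = 0.00106) and 0.49 ± 0.25 in REC (not called). These paralogs share much of their coding sequence, so probe sets of one may also pick up the other. Ube2d1 changed by -0.98 in CH against NX (adjusted p = 0.053) and Ube2e2 by 1.25 (adjusted p = 0.0719). For Ube2e2, CH 2 had a signal of 275, with 66.9 to 76.1 on the other CH arrays, and the change was -0.03 with the hybridization control scaling.

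The NEDD8 enzymes also moved apart. NEDD8 is attached to cullins and switches cullin ligases on, Uba3 is the catalytic subunit of its E1, and Ube2f is the E2 that serves cullin 5. Ube2f (1429568_x_at) had signals of 5928, 7542, 5237 and 8618 in CH, 857, 471, 552 and 456 in REC, and 531, 1202, 817 and 761 in NX. CH was above both other groups on every array, while REC and NX overlapped. The log2 change was 3.05 ± 0.30 in CH against NX (adjusted p = 8.25e-06), -0.48 ± 0.30 in REC against NX (adjusted p = 0.449) and 3.53 ± 0.30 in CH against REC (adjusted p = 6.49e-07). Uba3 was lower in CH than in NX by -1.25 ± 0.27 (adjusted p = 0.00314) and than in REC by -1.47 ± 0.27 (adjusted p = 0.000707), with 98.4 ± 36.1 in CH, 295 ± 59.1 in REC and 251 ± 60.0 in NX (SD, n = 4).

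The upstream of 2 RefSeq windows of Ube2f is shown beside that of Ube2c, since no other measured member's window held both CCAAT and TTTGAA. It is chr1:91250054-91250353 on the + strand of GRCm38.p6, with matches in capitals.
Ube2f promoter: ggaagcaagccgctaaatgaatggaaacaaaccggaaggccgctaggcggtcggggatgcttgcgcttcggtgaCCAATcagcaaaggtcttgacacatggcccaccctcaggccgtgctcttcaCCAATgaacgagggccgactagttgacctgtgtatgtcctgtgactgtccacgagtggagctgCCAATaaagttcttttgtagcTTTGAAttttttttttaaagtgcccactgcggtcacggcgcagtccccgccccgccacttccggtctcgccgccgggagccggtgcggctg
CCAAT occurs 3 times, at 176, 125 and 62 bases before the start, and TTTGAA once, at 41 bases before it. Promoter windows were found for 25 of the 33 genes, 34 windows in all, but not for Ube2w, Sae1, Ube2g2, Uba6, Ube2d2a, Ube2v2, Ube2o and Ube2e3. Of the 15 windows of genes higher in CH, 3 held CCAAT, 2 held TTTGAA, 1 held AGATAA, 2 held ACGTG, the core of a hypoxia response element, and 1 held CCACACCC, a site type of the erythroid factor KLF1. Among all windows ACGTG occurred in 19.6%, CCACACCC in 3.56% and a pair of GAAA repeats separated by 2 bases, bound by interferon factors, in 3.44%. The 6 windows of genes lower in CH held CCAAT in 1 and TTTGAA in 2, and none of the other motifs. The 13 windows of genes not called in CH against NX held CCAAT in 1, TTTGAA in 1 and ACGTG in 5, and none of the others. Some genes had several windows. The window of Ube2l6 held none of these 6 motifs.

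The DNA repair and histone E2s gave 1 gene that was higher in CH. Ube2a and Ube2b are the mammalian forms of yeast Rad6, which ubiquitinates PCNA with Rad18 and histone H2B with Rnf20 and Rnf40, and Ube2t serves the Fanconi anaemia pathway. Ube2b (1423106_at) had signals of 16253, 19641, 18431 and 23358 in CH, 2116, 1539, 1867 and 1720 in REC, and 2278, 4101, 3030 and 3081 in NX. CH was far above the other groups, and every REC array lay below every NX array. In log2 terms the change was 2.65 ± 0.24 in CH against NX (adjusted p = 4.91e-06), -0.76 ± 0.24 in REC against NX (adjusted p = 0.0877) and 3.41 ± 0.24 in CH against REC (adjusted p = 1.2e-07). The other 3 probe sets of Ube2b were called lower in REC against NX, with -1.62 for 1423107_at (adjusted p = 0.00354), about as bright as the one above, and -1.14 and -1.05 for the dim ones. Averaging the probe sets or quantile normalization also made the gene lower in REC, whereas on the hybridization control scale its change in REC was 0.05.

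Ube2a had a mean signal of 509 ± 212 in CH, 866 ± 177 in REC and 379 ± 94.9 in NX, and was higher in REC than in NX by 1.17 ± 0.30 (adjusted p = 0.0356). That call did not hold when any NX or REC array was left out, with adjusted p of 0.0507 to 0.122. In CH against NX the change was 0.37 ± 0.30, not called, and -1.17 with the hybridization control scaling. Ube2t was dim, at 42.6 ± 11.3 in CH, 49.2 ± 11.9 in REC and 35.1 ± 5.67 in NX, and was not called.

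Uba6, an E1 for ubiquitin and for the modifier FAT10, was not called in any comparison. It had 188 ± 101 in CH, 206 ± 44.9 in REC and 344 ± 49.9 in NX, a log2 change of -0.98 ± 0.36 in CH (adjusted p = 0.0542) and -0.71 ± 0.36 in REC (adjusted p = 0.328) against NX. Without CH 1 or without CH 3 it was called lower in CH. Sae1, a subunit of the E1 for SUMO, was the member with the largest decrease in CH, with 69.1 ± 51.3 in CH, 532 ± 87.4 in REC and 371 ± 57.1 in NX. Its log2 change was -2.34 ± 0.33 in CH against NX (adjusted p = 0.000155) and -2.84 ± 0.33 in CH against REC (adjusted p = 1.52e-05), while its other 3 probe sets were not called in CH against NX.

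Of the endoplasmic reticulum and lysine 48 chain E2s, 2 of 5 were lower in CH than in NX and none was called in REC against NX. Ube2g1, Ube2g2, Ube2j1 and Ube2j2 serve the disposal of misfolded proteins from the endoplasmic reticulum, and Ube2k builds lysine 48 chains. Ube2g1 had 151 ± 69.0 in CH, 615 ± 106 in REC and 478 ± 48.7 in NX, a change of -1.64 ± 0.28 in CH against NX (adjusted p = 0.000556). Ube2g2 had 55.4 ± 27.7 in CH, 288 ± 29.4 in REC and 152 ± 37.6 in NX, a change of -1.31 ± 0.32 (adjusted p = 0.00604), which fell just short of 2-fold without CH 1 (-0.98, adjusted p = 0.01). Ube2j1, Ube2j2 and Ube2k changed by -0.35, 0.31 and 0.27 in CH against NX through their brightest probe sets.

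The E2s of lysine 63 chains, which act in signalling and DNA repair rather than in degradation, were called in neither comparison with NX. Ube2n is the catalytic E2, and Ube2v1 and Ube2v2 are partners without a catalytic cysteine. Ube2n had 1520 ± 363 in CH, 1260 ± 233 in REC and 1010 ± 143 in NX, with changes of 0.57 in CH and 0.31 in REC against NX. Ube2v1 changed by 0.69 and 0.76, and Ube2v2 by -0.77 and 0.86. Only Ube2v2 was called between CH and REC, lower in CH by -1.62 ± 0.25 (adjusted p = 0.000162).

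Ube2q2, an E2 with an extended front part like Ube2q1, was lower in both CH and REC than in NX. Its signals (1433664_at) were 69.6, 44.3, 99.2 and 47.5 in CH, 48.5, 90.1, 74.8 and 93.6 in REC, and 211, 198, 227 and 207 in NX. CH and REC overlapped, and both lay wholly below NX. The log2 change was -1.53 ± 0.26 in CH (adjusted p = 0.000617) and -1.32 ± 0.26 in REC (adjusted p = 0.011), with -0.21 ± 0.26 in CH against REC (adjusted p = 0.539). In REC it was -0.63 and not called with the hybridization control scaling. Ube2q1 was lower in CH than in REC by -1.11 ± 0.23 (adjusted p = 0.00181), which was -0.98 without CH 1 and -0.71 with quantile normalization, both short of 2-fold.

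Ube2w, which places ubiquitin on the front end of proteins, and Ube2z, which Uba6 loads, were both lower in CH. Ube2w had 124 ± 38.7 in CH, 475 ± 122 in REC and 305 ± 16.2 in NX, a change of -1.24 ± 0.25 in CH against NX (adjusted p = 0.00213). Ube2z had 133 ± 53.6 in CH, 583 ± 84.8 in REC and 306 ± 35.0 in NX, a change of -1.16 ± 0.25 (adjusted p = 0.00334). With quantile normalization these were -0.96 and -0.90, and Uba3 was -0.99, all just short of 2-fold.

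Arrays within a group took like positions in many genes. CH 3 was the highest of the CH arrays in 7 of the 9 genes lower in CH, and it also had the highest sums of B cell markers (12057, with 2103 to 5197 on the other CH arrays) and T cell markers (4037, with 1068 to 1338). REC 1 was the highest of the REC arrays in all 6 genes higher in CH and lower in REC, and had the highest erythroid sum of the REC arrays (16115, with 5430 to 10192). CH 4 was the highest CH array in the same 6 genes and had the highest erythroid sum of all arrays (179514). The hybridization controls were also highest on these arrays within their groups. Their mean log2 signal was 14.6 on CH 4, with 14.0 to 14.3 on the other CH arrays. It was 12.2 on REC 1, with 11.6 to 11.9 on the other REC arrays. How often all genes took such positions was not counted. Leaving out CH 3 or CH 4 ended no call in CH against NX, and without CH 3 Uba6 (-1.20) and Ube2d1 (-1.39) were also called lower. Without REC 1 no gene was called higher in REC, since Ube2e1 and Ube2a were lost, and 7 were lower as with all arrays.

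Of the 33 genes, 26 had several probe sets, and these did not always give the same value. Of all 90, 27 were called higher in CH against NX and 17 lower, where 8.04% of all 45101 probe sets were higher and 13.9% lower. The 6 probe sets of Ube2f included 4 called higher, by 2.89 to 3.16, and 2 not called, and the 7 of Ube2d3 ran from -0.41 to 2.24 with 4 called higher. Ube2b and Ube2w each had probe sets called in opposite directions. In Ube2b, 1423106_at and 1423107_at changed by 2.65 and 2.78, while 1439477_at changed by -1.11. In Ube2w, 1452054_at and 1426398_at changed by -1.24 and -1.19, while 1457544_at changed by 1.05. Averaging the probe sets of each gene took the change in CH against NX below 2-fold for Sae1 (-0.87), Ube2d2a (-0.88), Ube2w (-0.46) and Ube2z (-0.83). In REC against NX it ended the calls of Ube2h (-0.80), Ube2e1 (0.30) and Ube2a (0.79). In CH against REC it ended those of Sae1 (just short of 2-fold), Ube2d2a (-0.97), Ube2w (-0.28), Uba7 (-0.76) and Ube2v2 (-0.03).

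In 4 genes the brightest probe set was not called in CH against NX but another was: Ube2j1, Ube2a, Ube2k and Ube2q1. Ube2j1 showed the widest gap, where 1448824_at had signals of 982, 1055, 573 and 1321 in CH, 106, 124, 134 and 77.0 in REC, and 77.4, 115, 102 and 101 in NX, a change of 3.07. Every CH array of that probe set was far above REC and NX, which overlapped, while 1417723_at of the same gene had 121, 229, 263 and 236 in CH, 324, 327, 284 and 386 in REC, and 215, 267, 276 and 307 in NX. For Ube2a, 1417609_at had 50.3, 55.3, 38.8 and 26.0 in CH, 214, 343, 373 and 284 in REC, and 210, 274, 198 and 205 in NX, a change of -2.04, against 0.37 for 1448772_at. The difference between probe sets of a gene was not tested, and where in the transcript each lies was not analysed here.

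**Figure D3:**
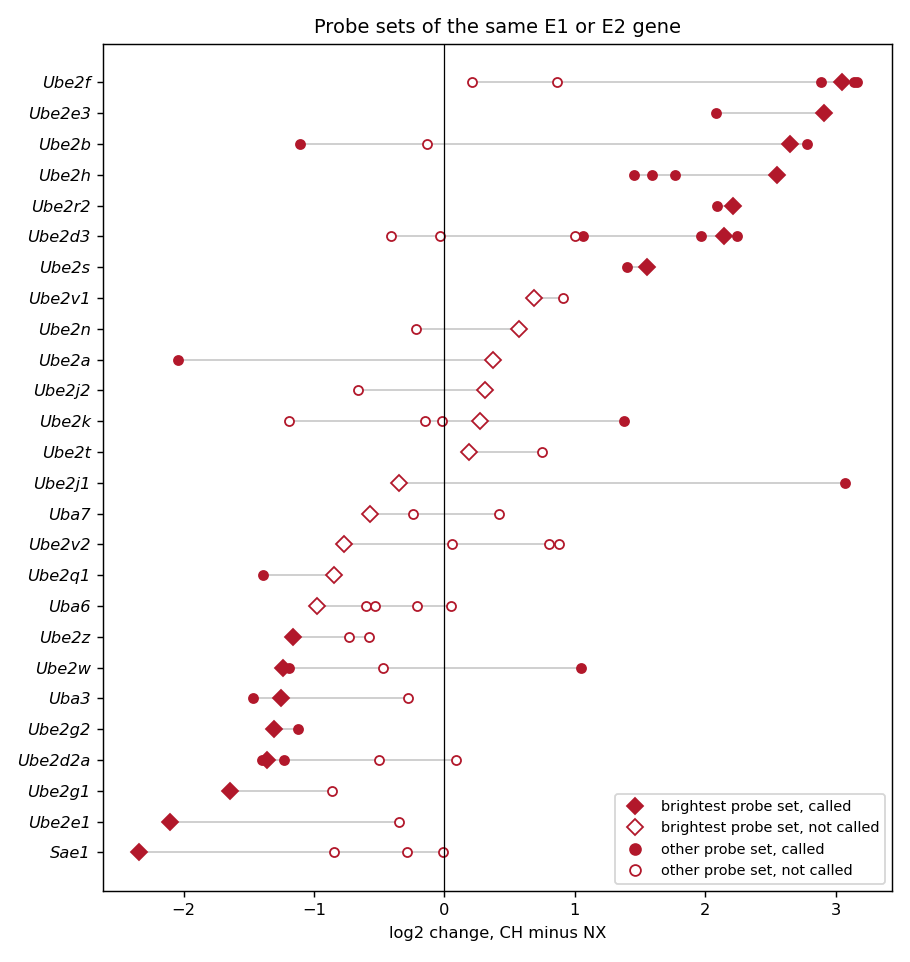
Log2 change in CH minus NX of every probe set of the 26 genes with several, with a diamond for the brightest, circles for the others, and filled symbols for calls. All probe sets of Ube2h lie between 1.45 and 2.55, while those of Ube2j1 lie at -0.35 and 3.07.

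Genes around these enzymes were counted from fixed lists, to be read against the 9.08% of all genes higher and 19.5% lower in CH, and the 2.5% higher and 1.79% lower in REC. Of 13 measured E1 and E2 genes outside the set, 1 was higher in CH than in NX (Tsg101, 2.44 ± 0.27, an E2 relative without activity that sorts cargo for lysosomes) and 4 were lower. The lower ones with the largest changes were Aktip (-2.27 ± 0.43), another inactive E2 relative, and Nae1 (-1.50 ± 0.27), the partner of Uba3. In REC, 1 of 13 was higher than in NX. Of 5 measured modifiers, 2 were higher in CH, Nedd8 (2.10 ± 0.27) and Fau (1.10 ± 0.26, but -0.52 with the hybridization control scaling), and 1 was lower, Sumo3 (-1.80 ± 0.38). Fau carries a ubiquitin-like protein fused to a ribosomal protein. None of the 5 was called in REC against NX. In direction Nedd8 thus went with Ube2f but against Uba3 (-1.25) and Nae1, and Sumo3 went with Sae1. On the hybridization control scale Nedd8 changed by 0.50 in CH against NX.

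Of 25 measured ligases and adaptors known to work with these E2s, against NX 6 were called higher in CH and 8 lower, and 1 was higher and 4 lower in REC. The largest increases in CH were in Ubr4 (3.17 ± 0.38), a giant ligase of the N-end rule, Rmnd5a (2.99 ± 0.26), a RING subunit of the CTLH complex that Ube2h serves, and Fbxo7 (2.96 ± 0.31), an F-box adaptor of SCF ligases. Maea, the RING partner of Rmnd5a in the CTLH complex and named after its values were seen, was lower in CH (-1.07 ± 0.35, adjusted p = 0.033). In REC against NX, Rmnd5a changed by -2.10 and Fbxo7 by -1.61, both called lower, and Ubr4 by -0.40, not called.

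**Figure D4:**
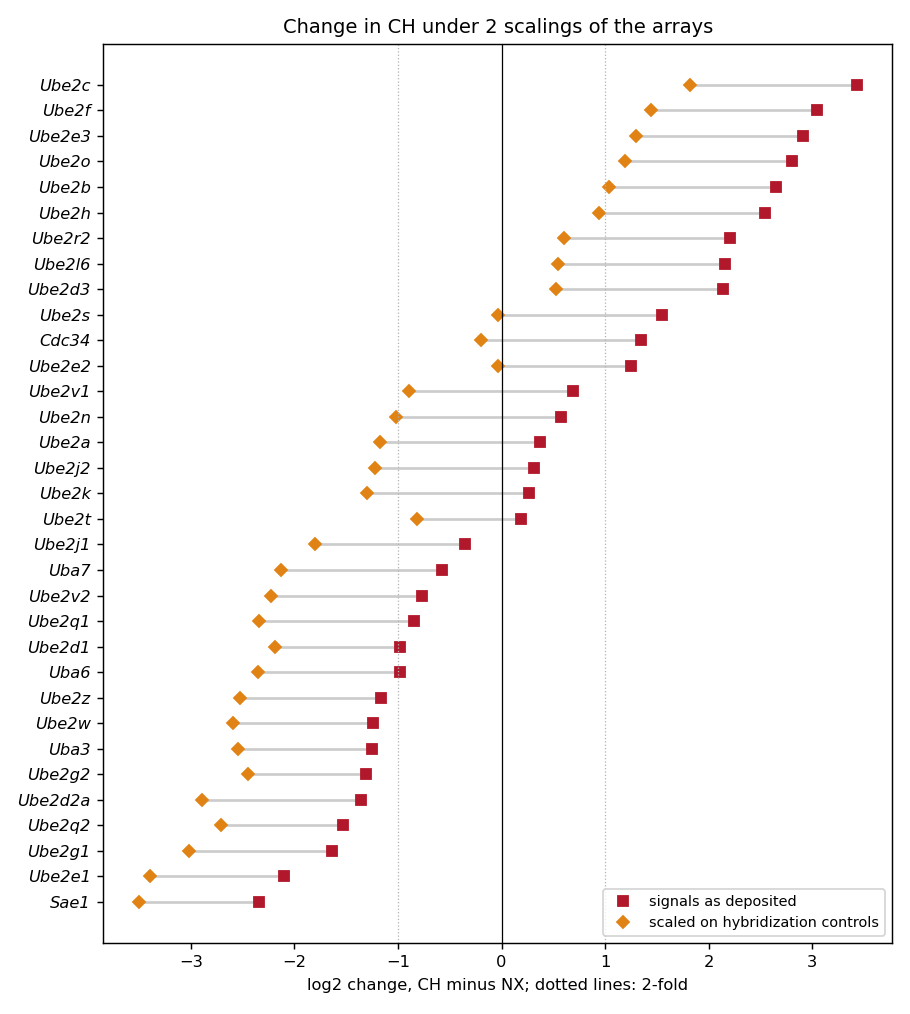
Log2 change in CH minus NX of the 33 genes with the signals as deposited (squares) and after scaling each array on its 18 hybridization control probe sets (diamonds), with dotted lines at 2-fold. The order of the genes is largely kept while all move down, so that Ube2c goes to 1.82, Cdc34 to -0.20 and Sae1 to -3.50.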

How the data were processed

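Whole blood RNA of 12 C57Bl/10 mice (4 CH, 4 REC and 4 NX) was hybridized to Affymetrix Mouse 430 2.0 arrays. The sources differ on RNA preparation: the labels name RNeasy and Ribo-SPIA amplification, the paper's Methods Tri-Reagent and One-Cycle labelling. The deposited values are intensities, 1 linear signal per probe set and array, with a trimmed mean of 150.0 (2% trimmed at each end) as global scaling gives. Per the Methods, the GeneChip Operating System stored the raw intensities of each probe set and scaling factors were checked, without saying which step made the scaled signals. The GC-RMA that the Methods name for the authors' own analysis is on a log2 scale, which these are not. Titles, source and treatment call the CH mice hypoxic, and another label field, which says normoxic, was set aside. No detection calls, batches or dates were used.

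Gene names come from the platform annotation (34958 of 45101 name 1 gene, 34754 of them matched by gene number). With limma 3.58.1 (R 4.3.3), log2(signal + 16) of the 12 arrays was modelled (a mean per group, eBayes, 9 residual degrees of freedom), and p-values were adjusted by Benjamini-Hochberg over all 45101 probe sets. A gene was taken through its brightest single-gene probe set. The number of arrays limits the precision. The code was tested on simulated data. Promoter windows and their build are RefSeq's, and 6 motifs chosen after the values were seen were searched on both strands, where a palindromic ACGTG match counts on each strand. Figures were drawn with matplotlib 3.10.9 in Python 3.11.15.

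The genes, lists, roles and tests were chosen with earlier results of these data known. All 36 listed genes are named. Values of all arrays are given for genes called against NX both in CH and in REC, and for the 6 called genes with the largest change in each comparison, 10 genes in all. The second probe sets of Ube2j1 and Ube2a were added after their values were seen. From the other lists the 3 called genes with the largest change in CH are named. Alternatives were quantile normalization, median centring, scaling on the hybridization controls, a pseudocount of 1, leaving out dim probe sets, no moderation, a trend and robust prior, array weights, an adjusted p under 0.01, a 1.5-fold threshold, fitting only the 8 arrays compared, the replicate number as a block, averaging the probe sets of a gene and leaving out each array. Further marker lists (neutrophils, monocytes, platelets) had 0 called of 6, 1 lower of 6 and 0 called of 7 in CH against NX.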

Additional observations from a re-analysis of the deposited data

Results flagged for a closer look

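In 7 of the 99 combinations of a gene and a group, 1 array stood apart from the other 3 by a gap past Dixon's 95% critical value, which chance gives in about 1 of 20 groups. Ube2d1 had 203 on CH 3, with 48.2 to 62.5 on the other CH arrays (gap 0.836 of the range), and 106 on REC 1, with 159 to 165 on the other REC arrays (0.92). Ube2e2 had 275 on CH 2, with 66.9 to 76.1 on the other CH arrays (0.916). NX 1 was low in 3 genes, at 788 for Ube2d2a with 1080 to 1100 on the other NX arrays (0.956), at 119 for Cdc34 with 247 to 271 (0.883), and at 205 for Ube2s with 458 to 537 (0.832). Ube2t had 26.6 on NX 2, with 37.1 to 38.5 on the other NX arrays (0.89).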

How the results depend on the processing

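Over 99 log2 changes (33 genes in 3 comparisons), the trend and robust prior, fitting only the 8 arrays compared and the replicate block changed no call. Mice were not paired by replicate number. The deviations of same-numbered arrays correlated at -0.203 to 0.436. Values over 0.1 were found in 3 pairs, all between CH and NX (0.436, 0.185 and 0.103). With the replicate block 11 genes were higher and 9 lower in CH against NX. The count higher in CH (11) was 6 with quantile normalization. Scaling on the hybridization controls gave 5 higher, and 19 lower in place of 9. The count higher in REC (2) was 17 with the hybridization control scaling, and 0 with a pseudocount of 1, no moderation, an adjusted p under 0.01 or when the probe sets of a gene were averaged. Leaving out 1 array gave 0 to 2, with 0 for each NX and REC array. In CH against REC the count lower (11) was 23 with the hybridization control scaling and 7 with averaged probe sets. The genes higher in CH and lower in REC (6) were 3 with quantile normalization and 2 on the scale of the hybridization controls. With the hybridization control scaling the sign changed in 9 of 33 genes in CH against NX, 6 in REC against NX (none called on either scale) and 5 in CH against REC. Those called on at least 1 of the scales were Cdc34 (-0.20 in CH against NX, -1.46 in CH against REC), Ube2s (-0.03 and -0.14), Ube2n (-1.02 and -2.14), Ube2j2 (-1.22 and -2.03), Ube2a (-1.17 in CH against NX), Ube2k (-1.30 in CH against NX) and Ube2e2 (-1.59 in CH against REC). Ube2e2 (-0.03), Ube2t (-0.82) and Ube2v1 (-0.89) in CH against NX were called on neither scale. With averaged probe sets, among changes called with or without averaging, the sign changed only for Ube2j1 (1.36 in CH against NX, 1.15 in CH against REC). Sign changes of uncalled genes were not counted for averaged probe sets. The hybridization control scaling moved the median of all probe sets to -0.71, 0.40 and -1.13 in CH against NX, REC against NX and CH against REC, with 0.11, -0.10 and 0.25 as deposited. The share of all genes called was not counted under any of these alternatives. Which scaling is nearer to the amounts of RNA was not tested.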
